A study of Homo sapiens with 267 samples.

Results

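The 10 genes described here encode the globin chains of human haemoglobin. They were chosen by symbol, as the rows of the count table whose Ensembl identifiers carry the names HBE1, HBG1, HBG2, HBD, HBB, HBZ, HBM, HBA1, HBA2 and HBQ1, and all 10 were found among the 63677 genes of the table. The rule used symbols only, but the list was drawn up with earlier results of these data known. The cells were K562 (CCL-243), an established human line from a myelogenous leukaemia that keeps an immature erythroid programme, grown in RPMI 1640 with serum.

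Haemoglobin is a tetramer of alpha-type and beta-type chains, each type encoded by a cluster of genes that lie in the order of their use in development. In the beta cluster HBE1 encodes the embryonic epsilon chain, HBG1 and HBG2 the fetal gamma chains, HBD the minor adult delta chain and HBB the major adult beta chain. In the alpha cluster HBZ encodes the embryonic zeta chain, HBA1 and HBA2 the alpha chains of fetal and adult life, and HBM and HBQ1 the mu and theta chains, which have no established place in a haemoglobin. K562 cells are known for making embryonic and fetal rather than adult beta-type globin.

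Cells were captured on Fluidigm C1 chips in 3 experiments, called runs here, and cDNA was made in each capture site with SMARTer chemistry and made into libraries with Nextera XT. The Hoechst run held untreated cells at passages 90 to 92, stained for 20 min with 2 µM Hoechst and 3.75 µM propidium iodide. In both other runs the cells were at passages 20 to 22 and were stained for 30 min with a 1 µM CellTracker dye and with LIVE/DEAD Fixable Red. In the benzene run the CellTracker Orange cells had been given 10 mM benzene for 3 h and the CellTracker Green cells nothing. In the imatinib run the Orange cells had been given 1 µM imatinib, an inhibitor of the BCR-ABL1 kinase on which this line depends, for 1 h, and the Green cells again nothing. Dye and drug therefore cannot be told apart, and the passages are given in the labels with hours as their unit. By its methods the study captured fresh cells at once and cells fixed with DSP, a reversible crosslinker, on later days, lysed the fixed cells with added DTT, and made bulk libraries from many cells beside the single cells. The labels do not say which libraries were fresh, fixed or bulk, so each group may mix them. The spread between libraries thus holds capture day, fixation and bulk as well as differences between cells. The labels name no separate cultures within a group, and no p-value was computed from this spread.

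Counts were available for 263 libraries, 96, 71 and 96 in the Hoechst, benzene and imatinib runs, with 50358 to 2043351 reads on genes each. Libraries in which the 500 largest genes held over 70% of the reads were left out, which kept 242 (82, 65 and 95), of which 31 and 34 were Green and Orange in the benzene run and 50 and 45 in the imatinib run. Of the kept libraries, 12 had over 10000 genes with more than 2 reads, among them library 93 of the Hoechst run with 11651, the highest of that run in gamma globin, and whether these were bulk libraries or sites with more than 1 cell was not tested. Levels are CPM, the reads of a gene per 1000000 reads on all genes of the library, and a gene counted as detected with more than 2 reads. Of the 7 genes taken as markers of K562, PRAME and TFRC were detected in every kept library, GATA1 in 92.3% to 100% by run and LMO2 in 38.5% to 61%. Of 11 markers of other cells, CD3E, MS4A1 and CD14 were detected in at most 2.11% of the libraries of a run, and ALB, COL1A1 and COL1A2 in at most 10.8%. EPCAM was detected in 78.5% to 86.3%, LYZ in 58.5% to 81.1%, KRT19 in 40% to 86.3%, and CD3D in 82.9%, 41.5% and 27.4% of the libraries of the Hoechst, benzene and imatinib runs. Their part in the differences between runs was not tested.

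HBG1 and HBG2 are near-identical copies, and only reads that fell on a base that differs between them could be told apart. In GRCh37 their transcripts lie on the minus strand of chromosome 11, at chr11:5269499-5271087 and chr11:5274418-5276011. Over 586 aligned bases they differed at 4 (2 in the coding sequence, 2 in the 3′ UTR). With positions counted from 1 at the 5′ end of the transcript and the HBG1 base given first, the coding differences were C280T and C463G. They are shown because they are the reference letters by which coding reads were assigned, with the differing base in capitals and the strand of the transcript. Whether the cells carry these bases was not checked.
HBG1, chr11:5270656-5270716: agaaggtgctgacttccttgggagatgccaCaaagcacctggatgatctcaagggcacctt
HBG2, chr11:5275580-5275640: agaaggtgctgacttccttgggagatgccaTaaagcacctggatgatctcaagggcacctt
HBG1, chr11:5269593-5269653: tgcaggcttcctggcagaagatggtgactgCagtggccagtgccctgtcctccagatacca
HBG2, chr11:5274511-5274571: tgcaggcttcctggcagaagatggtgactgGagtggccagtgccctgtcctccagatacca

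Windows of the spliced transcripts were compared with the annotated transcripts of the other globin genes described here and of the pseudogenes HBBP1 and HBZP1. No other gene was searched. Of all 75-base windows of HBG1, 39% occurred in none of these transcripts, as did 38.9% of those of HBG2. For the 100-base reads of the Hoechst run these shares were 46.1% and 46%. The coding sequences of HBA1 (chr16:226679-227521, plus strand) and HBA2 (chr16:222875-223709) were identical over 426 bases, and all 19 differences lay in the 3′ UTR. Only 19.3% of the 75-base windows of HBA1 and 19.1% of those of HBA2 were their own. Reads in the shared windows were not uniquely placed and so did not enter the counts, unless the mate placed them, and the levels of these 4 genes are therefore too low by an amount that the counts do not give. HBZ (chr16:202643-204502) shared 283 of its 724 windows of 75 bases with the pseudogene HBZP1 or with an annotated HBM transcript that overlaps it. HBE1, HBD, HBB, HBM and HBQ1 shared none with the genes searched. The gene models of HBE1 and HBG2, of HBD and the pseudogene HBBP1, and of HBZ and HBM overlap in the annotation used here, which is later than the one used for counting.

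The fetal gamma genes gave most of the globin reads in all 3 runs. HBG1 and HBG2 together held 81.4%, 78.6% and 77.5% of all globin reads in the Hoechst, benzene and imatinib runs, and HBE1 held 13.4%, 16.7% and 10.8%. HBA1 and HBA2 together held 3.04%, 2.36% and 5.54%, and HBZ held 1.22%, 1.30% and 4.58%. The beta cluster thus had 18.6, 21.5 and 8.14 times the reads of the alpha cluster, a ratio of counted reads, which leaves out those in shared windows, a larger part for the alpha than for the gamma genes. The 10 genes took a median of 0.260%, 0.416% and 0.409% of the reads of a library.

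**Figure D1:**
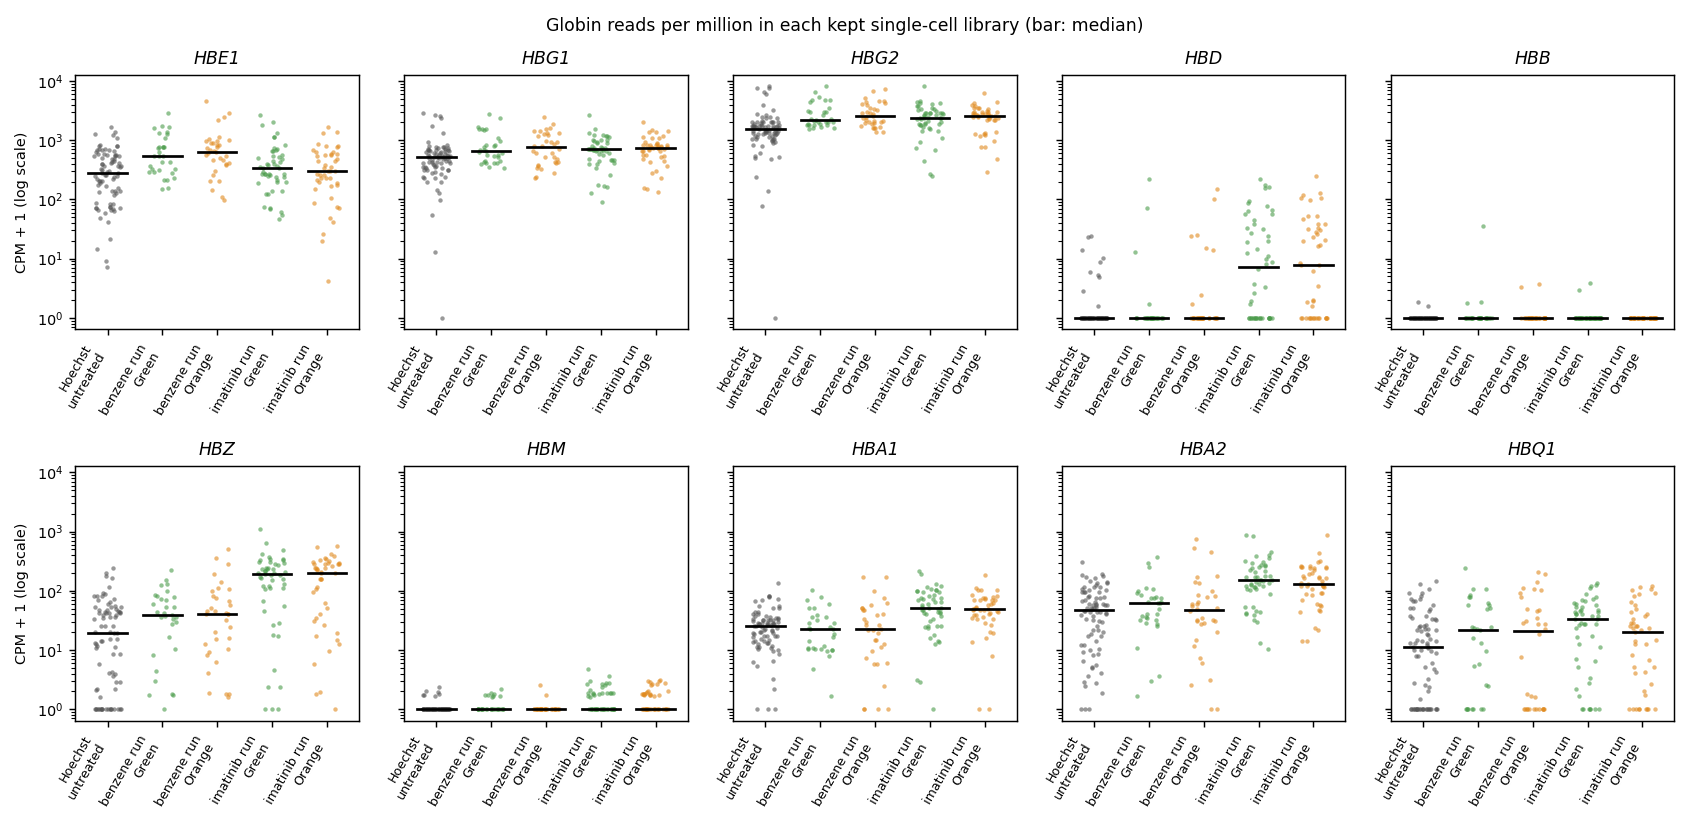
Reads of each globin gene per 1000000 reads on genes (CPM + 1, log axis) in every kept library (points), by run and stain, with the median as a bar. HBG2 and HBG1 stand highest in all 5 groups, HBB and HBM sit at or near 0, and HBZ, HBA1, HBA2 and HBD have their highest medians in both groups of the imatinib run.

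The gamma level differed less between runs than that of HBZ or HBD. The sum of HBG1 and HBG2 ranged from 0 over a median of 2090 to 11058 CPM in the Hoechst run. It ranged from 1615 over 2976 to 10952 CPM in the benzene run and from 342 over 3276 to 10863 CPM in the imatinib run. Reads on gamma globin were found in 241 of 242 kept libraries. The exception was library 2 of the Hoechst run, which had no read on 9 of the 10 genes and 49 reads on HBE1 among 1020817, with 6446 genes detected. The next lowest, library 11 of that run, had 131 CPM of gamma and 6.29 CPM of HBE1, the lowest HBE1 level of the run.

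HBE1, the embryonic epsilon gene, was detected in every kept library. Its level ranged from 6.29 over a median of 285 to 1684 CPM in the Hoechst run, from 98.9 over 597 to 4682 CPM in the benzene run, and from 3.22 over 305 to 2683 CPM in the imatinib run. The ranges of the runs overlapped, with the highest median and the highest library in the benzene run. HBE1 had more reads than both gamma genes together in only 2 of 82 libraries of the Hoechst run, library 2 among them, and in none of the 65 and 95 libraries of the other runs. Its share of the reads on HBE1 and the gamma genes ranged from 0.21% to 41.5% over the libraries of the imatinib run, with a median of 11.1%.

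Of the adult beta-type genes HBB was almost silent and HBD was read in part of the libraries. HBB had 69 reads in all 242 kept libraries together, of which 51 came from library 69 of the benzene run, a Green library with 3959 genes detected. More than 2 reads were counted in 5 of the 242 libraries, and outside library 69 the highest count was 4. At the median depth of 1283280 reads, a count of 0 allows up to 2.34 CPM (3 counts), so a level under this was not detectable in a single library. HBD was detected in 8 of 82 libraries of the Hoechst run (9.76%), 9 of 65 of the benzene run (13.8%) and 53 of 95 of the imatinib run (55.8%). Its highest levels were 23.5, 222 and 253 CPM, and it held at most 18% of the globin reads of a library. After each library was thinned to 300000 reads, HBD was detected in 3.75%, 13.8% and 44.2%, with 2 shallower Hoechst libraries left out. The library highest in HBD of the imatinib run, an Orange one, had 930 CPM of gamma globin, and that of the benzene run had 10952 CPM, the highest of that run.

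HBZ, the embryonic zeta gene, had its highest levels in the imatinib run. It ranged from 0 over a median of 18.1 to 244 CPM in the Hoechst run and from 0 over 38.8 to 505 CPM in the benzene run. In the imatinib run it ranged from 0 over 195 to 1118 CPM. HBZ was detected in 70.7%, 87.7% and 91.6% of the libraries, and in 63.8%, 76.9% and 88.4% after thinning to 300000 reads. It had no read in 18 of 82 libraries of the Hoechst run, 1 of 65 of the benzene run and 4 of 95 of the imatinib run.

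HBA2 ranged from 0 over a median of 46.5 to 310 CPM, from 0 over 48 to 736 CPM and from 9.37 over 141 to 877 CPM in the Hoechst, benzene and imatinib runs. HBA1 had medians of 24.5, 21.7 and 48.8 CPM. Both alpha genes thus had their highest medians in the imatinib run, where HBA2 was detected in all 95 libraries. In no kept library of any run did HBA1 and HBA2 together have more reads than the gamma genes. HBZ had more counted reads than both alpha genes in 6 of 82, 19 of 65 and 36 of 95 libraries. A smaller part of the windows of the alpha genes than of HBZ was their own, so these counts favour HBZ.

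HBQ1, the theta gene, had medians of 10.2, 21.1 and 24.9 CPM and no read in 23 of 82, 20 of 65 and 16 of 95 libraries. HBM, the mu gene, had 90 reads in all kept libraries, at most 4 in any of them. The 7 libraries with more than 2 HBM reads were all in the imatinib run. The pseudogene HBBP1, which lies between the gamma genes and HBD, had medians of 2.50, 44.9 and 39.4 CPM, below HBQ1 in the Hoechst run and above it in the others.

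Per kilobase of transcript the order of the medians was HBG2, HBG1, HBE1, HBA2 in all 3 runs. The median level of HBG2 was 2627, 3951 and 4372 CPM per kilobase and that of HBG1 872, 1160 and 1223. HBE1 followed with 457, 959 and 489 CPM per kilobase. HBG2 lay above HBG1 in every library with gamma reads, and the quartile ranges of these genes did not overlap in any run. HBG1 lay above HBE1 in 62 of 82, 39 of 65 and 82 of 95 libraries, so within libraries HBG1 was more often the higher, while over libraries their quartile ranges overlapped in every run. HBA2 and HBZ likewise overlapped in every run, and in the imatinib run their medians were 245 and 244 CPM per kilobase. This likeness makes no allowance for shared windows. Of the 75-base windows, 96 of 502 of HBA2 and 441 of 724 of HBZ were their own. Divided by the number of 75-base windows that belong to the gene alone, the order of HBE1 and HBA2 turned in the imatinib run, with medians of 555 and 1472 CPM per 1000 windows, and HBG1, at 3590, lay well above both. This division takes coverage along the transcript as even. The own windows of HBA2 all lie toward its 3′ end, whereas those of HBE1 span its transcript. The paper reports a mild bias of coverage toward the 3′ end in fixed cells, and its part in this order was not tested.

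The split within each pair of copies was similar between runs. HBG2 took 75.5% (95% exact binomial interval 75.4 to 75.7), 77.4% (77.3 to 77.6) and 76.9% (76.8 to 77) of the reads that could be assigned to a gamma gene. Over libraries with at least 20 such reads the share had an SD of 6.42, 4.10 and 3.43 percentage points, so the runs differed by less than the spread between libraries. HBA2 took 69.5%, 73.8% and 75.5% of the reads assigned to an alpha gene, with an SD of 17.6, 11.1 and 8.13 percentage points. The intervals cover counting error only, since reads made by PCR are not independent molecules. The shares also take the bases of the reference as those of the cells, which was not checked. The numbers of 75-base windows of their own were almost equal within each pair, 200 and 199 for HBG1 and HBG2 and 97 and 96 for HBA1 and HBA2. By stain the share of HBG2 was 77.2% in Green and 77.7% in Orange cells of the benzene run and 77.2% and 76.5% in the imatinib run.

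The embryonic genes took a smaller part than the gamma and alpha genes in every run. HBE1 took 14.1%, 17.6% and 12.2% of the reads on HBE1 and the gamma genes, and the SD between libraries was 13.9, 9.28 and 7.90 percentage points. HBZ took 28.6%, 35.5% and 45.2% of the counted reads on HBZ and the alpha genes, with an SD of 21, 28.7 and 20.6 percentage points. Reads in shared windows are left out, a larger part for the alpha genes than for HBZ. Between Green and Orange cells the HBE1 share was 16.3% and 18.7% in the benzene run and 13.1% and 11.3% in the imatinib run, differences well inside the spread over libraries.

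**Figure D2:**
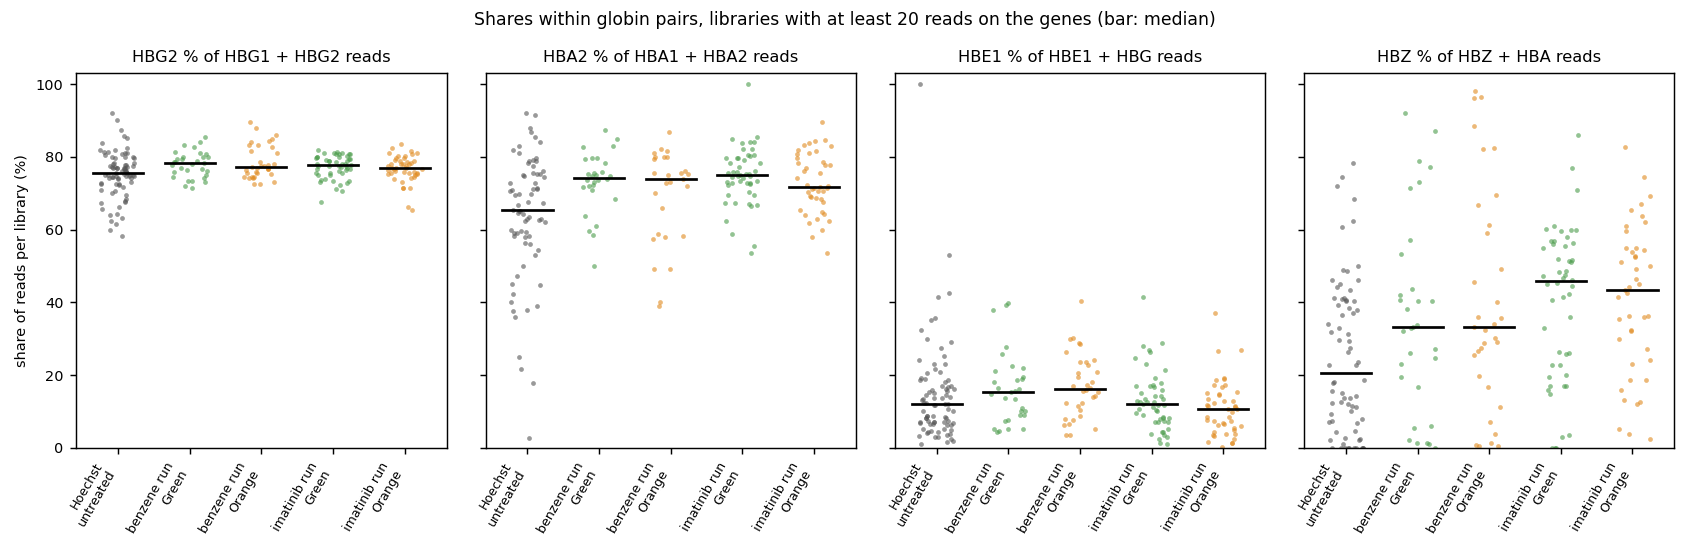
Share of reads (%) in each kept library with at least 20 reads on the named genes (points), by run and stain, with the median as a bar. The median share of HBG2 in gamma reads is 75.6% to 78.3% in all 5 groups, whereas the HBZ share of HBZ and alpha reads runs from 0% to 98.2% between libraries.

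The spread between libraries was narrow for gamma globin, and for HBZ and HBQ1 it depended on the measure. The SD of log2(CPM + 1) of HBG2 over libraries was 1.56, 0.65 and 0.92 in the Hoechst, benzene and imatinib runs, where the median over all genes found in 50% or more of them was 2.29, 2.51 and 1.98. In the benzene run 0.891% of 5388 such genes had a lower SD than HBG2, in the imatinib run 9.39% of 7552 and in the Hoechst run 15.5% of 7178. HBE1 had an SD of 1.62, 1.19 and 1.53, and HBZ of 2.48, 2.17 and 2.41, of which those of the Hoechst and imatinib runs were above the median over genes. HBQ1 had 2.34, 2.78 and 2.32, above that median in every run, and HBA2 1.96, 2.03 and 1.29, below it in every run. Counting error falls as the level rises, and its part in these differences was not tested. The CV of the summed gamma level was 0.84, 0.54 and 0.50, that of HBE1 0.89, 0.97 and 0.99 and that of HBZ 1.37, 1.37 and 0.88. The median CV over the same genes was 1.42, 1.52 and 1.15, so by CV HBZ lay below the median in every run, as did HBQ1 with 1.41, 1.39 and 1.05. HBD, in the set in the imatinib run only, had the widest spread of the members there, with an SD of 2.68 and a CV of 1.68.

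The gamma and alpha genes varied together from library to library. Spearman's rho between HBG1+HBG2 and HBA1+HBA2 was 0.67, 0.71 and 0.81 over 82, 65 and 95 libraries. Between the copies it was 0.75, 0.88 and 0.92 for HBG1 with HBG2 and 0.68, 0.84 and 0.87 for HBA1 with HBA2. HBE1 had a rho of 0.62, 0.37 and 0.54 with the gamma sum and of 0.49, 0.37 and 0.60 with HBZ. The rho of HBZ with the gamma sum was 0.50, 0.13 and 0.62 and with the alpha sum 0.51, 0.11 and 0.63, so that in the benzene run HBZ varied with HBE1 more than with either. By stain the rho of HBE1 with the gamma sum in that run was 0.13 in Green and 0.49 in Orange cells. In the imatinib run the rho of HBD with HBG1+HBG2 was 0.54 in Green cells and -0.00054 in Orange cells. HBD had no read in 19 of the 50 Green and 15 of the 45 Orange libraries. These contrasts by stain are picked from many pairs and were not tested. HBQ1 had a rho of at most 0.40 with any of the others, and at most 0.19 in the imatinib run. These are descriptions over libraries that share a run and a common total and may mix fresh, fixed and bulk samples. In the benzene run the gamma sum had a rho of -0.44 with the reads of the library and the alpha sum also -0.44, against -0.17 and -0.10 in the imatinib run and -0.01 and 0.06 in the Hoechst run; the part of depth in the values of the benzene run was not tested.

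**Figure D3:**
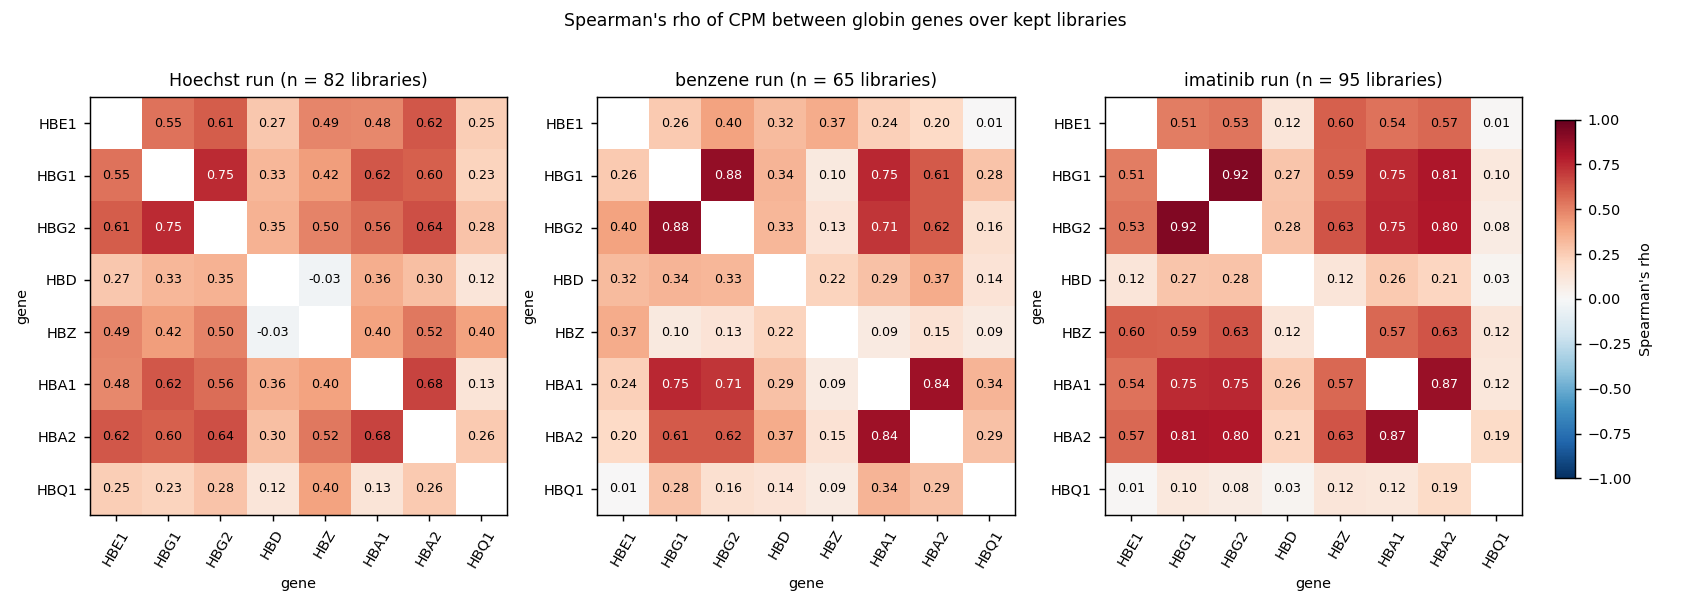
Spearman's rho of CPM for each pair of 8 globin genes over the kept libraries of the 3 runs (colour scale from -1 to 1, value in each cell). The pairs among HBG1, HBG2, HBA1 and HBA2 have 0.56 to 0.92, HBZ has at most 0.15 with these 4 genes in the benzene run, and HBQ1 is at 0.40 or less throughout.

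Genes outside the clusters had correlations with the globins that were weak in at least 1 run. Among 5091 genes that passed the detection limit in 50% or more of each run's libraries, ranked by the lowest rho of the 3 runs, the highest for the gamma sum included the ribosomal protein pseudogene RPS27P4 (0.32) and PTTG1, which encodes securin (0.29). For the alpha sum they were COX7C (0.35), RPS27P4 (0.34) and COX6B1 (0.33), subunits of cytochrome c oxidase apart from the pseudogene. For HBE1 they were COX6A1P2 (0.35), COX6A1 (0.27) and HEMGN (0.21), a nuclear protein of erythroid cells, and for HBZ SRM (0.26), AMOTL1 (0.26) and HEMGN (0.24). In the benzene run alone some reached the level of the globins among themselves: with the gamma sum RPS27P3 had 0.68, RPS27P4 0.66 and GSTP1, a glutathione transferase gene, 0.63, and with the alpha sum the ribosomal protein gene RPLP2 had 0.71. These 4 were singled out after their values were seen. By the lowest rho HBA2 had 0.63 with the gamma sum. By rank the members were not all ahead, since HBZ had 0.13 with the gamma sum. The pseudogenes share reads with their parent genes and are uncertain, and rho values of this size in sparse counts are no finding.

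Erythroid regulators and partners of haemoglobin were read from a list of 18 genes. The repressor of gamma globin BCL11A was detected in no kept library, while ZBTB7A, the other main repressor, was detected in 73.2%, 20.0% and 46.3% of the libraries of the Hoechst, benzene and imatinib runs. LIN28B, an RNA-binding protein of fetal cells, was detected in 79.3%, 67.7% and 96.8%, and IGF2BP1, another RNA-binding protein of fetal cells, in at least 93.8%. KLF1, an activator of adult beta globin, had medians of 34.8, 4.33 and 39.7 CPM. AHSP, the chaperone of free alpha chains, had a median of 0 CPM in each run and was detected in 18.3%, 21.5% and 32.6%. Of the 17 genes with a rho in each run, 2 had a rho over 0.2 with the gamma sum in all 3, among them AHSP with 0.35, 0.38 and 0.57. The median rho with the gamma sum over these 17 genes and the runs was 0.02. GATA1, the master regulator of the lineage, had 0.25, 0.30 and 0.01.

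The comparison of Orange with Green cells over both runs asks whether globin RNA differed in a way common to the Orange groups, which share the dye but not the drug. Over both CellTracker runs the kept libraries of each group were summed and the 4 sums were fitted with the run as a term in edgeR's quasi-likelihood test. Of 17684 genes tested, 0 passed a Benjamini-Hochberg adjusted p of 0.05 (0%), 439 had an unadjusted p under 0.05, and limma voom called 0 and DESeq2 117. None of the 9 globin genes tested (HBB was too low) was called by any of these tools or had an unadjusted p under 0.05. The log2 differences, Orange minus Green, were -0.0036 for HBE1, 0.0015 for HBG1, -0.0055 for HBG2, 0.17 for HBZ, 0.06 for HBA1 and 0.06 for HBA2, each with an edgeR adjusted p of 1. Of the 18 partner genes 17 were tested and 0 called, in either direction, and 1, NFE2, had an unadjusted edgeR p under 0.05 (log2 difference -0.59, adjusted p of 1). The groups compared are drug treatments of different kinds, so the fit concerns what they share. Responses that differ between the drugs enter its error, and 4 sums with terms for run and stain leave little from which to estimate that error. The lack of calls therefore does not show what either drug did.

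Within the benzene run the globin levels of Orange and Green cells overlapped almost wholly. The gamma sum ranged from 1902 over a median of 2867 to 10952 CPM in the 31 Green libraries and from 1615 over 3177 to 9840 CPM in the 34 Orange ones. The log2 ratio of the summed reads, Orange to Green, was 0.01 (95% counting interval -0.0028 to 0.02). HBE1 ranged from 147 over 536 to 2935 CPM in Green and from 98.9 over 639 to 4682 CPM in Orange cells, with a log2 ratio of 0.24 (0.22 to 0.26). Without library 10, an Orange library with the highest HBE1 level, the ratio was 0.04. HBZ had medians of 38.7 and 39.2 CPM and a log2 ratio of the sums of 0.50 (0.43 to 0.58), which was 0.24 without library 18, the highest Orange library. The alpha sum had medians of 84.8 and 76.1 CPM, a log2 ratio of 0.35 (0.29 to 0.41), and 0.08 without the same library. The difference of the mean log2(CPM + 1) of the alpha sum was -0.30, the other way, with an SD over libraries of 1.53 in Green and 2.28 in Orange cells. The intervals cover counting error only, and every one of these ratios was smaller than the spread between libraries. In this run 11.6% of 9530 genes found in 20% or more of the libraries were past 2-fold higher in Orange and 10.6% past 2-fold lower, and no globin gene of that set was among either.

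Within the imatinib run the ranges overlapped likewise. The gamma sum ranged from 342 over a median of 3160 to 10863 CPM in the 50 Green libraries and from 437 over 3352 to 8398 CPM in the 45 Orange ones, with a log2 ratio of 0.02 (0.0076 to 0.03). HBE1 ranged from 46 over 338 to 2683 CPM in Green and from 3.22 over 304 to 1697 CPM in Orange cells, with a log2 ratio of -0.22 (-0.24 to -0.19), and -0.09 without library 32, the highest Green library. HBZ had medians of 190 and 198 CPM and a log2 ratio of -0.13 (-0.16 to -0.09), and the alpha sum medians of 198 and 176 CPM and a log2 ratio of -0.20 (-0.24 to -0.17). Without the highest library of each, 14 (Green) for HBZ and 40 (Orange) for the alpha sum, these ratios were -0.01 and -0.33. HBD, detected in 27 of 50 Green and 26 of 45 Orange libraries, had a log2 ratio of 0.01 (-0.08 to 0.11). HBQ1 had medians of 32.5 and 18.9 CPM and a log2 ratio of -0.33 (-0.43 to -0.25), with an SD of log2(CPM + 1) of 2.25 and 2.36 over libraries. Past 2-fold higher in Orange were 3.05% of 10834 genes and past 2-fold lower 3.83%, and again no globin gene.

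**Figure D4:**
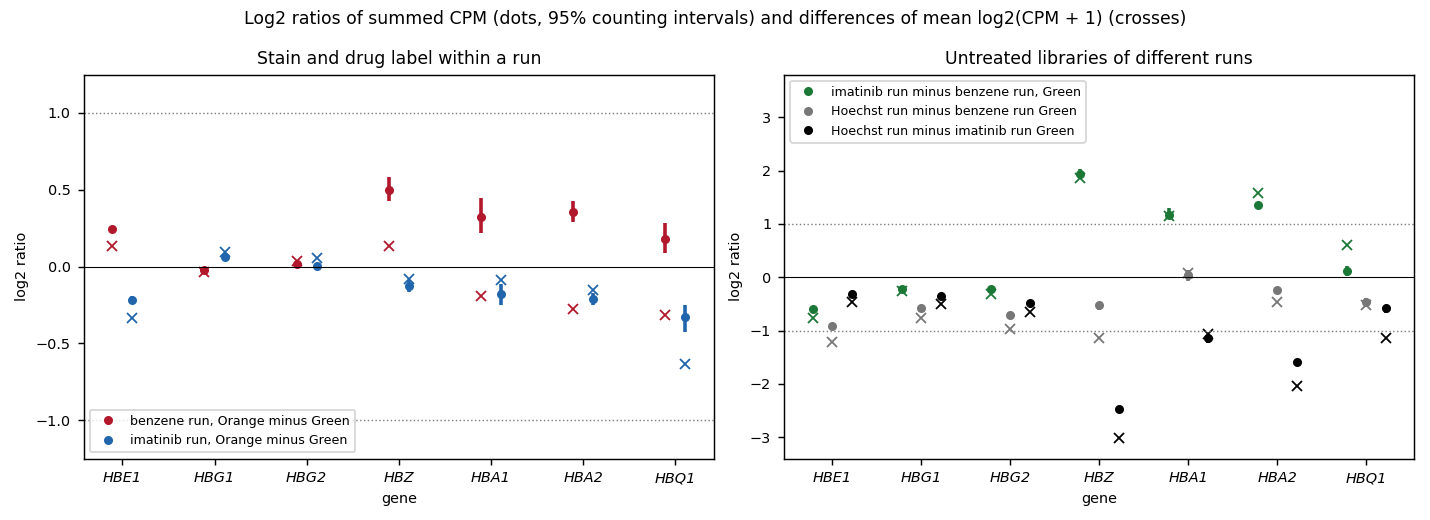
Log2 ratios of summed CPM for 7 globin genes (dots, with the 95% counting interval as a line) and differences of mean log2(CPM + 1) over libraries (crosses); dotted lines mark 2-fold. All Orange to Green values (left) lie within 2-fold. Among untreated cells (right) HBZ, HBA1 and HBA2 lie past 2-fold higher in the imatinib than in the benzene run and past 2-fold lower in the Hoechst than in the imatinib run.

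Untreated cells of different runs had larger ratios for several genes than Orange and Green cells of the same run; the difference between these ratios was not tested. Of Green cells, those of the imatinib run had a log2 ratio to those of the benzene run of 1.94 for HBZ (1.90 to 2.03), 1.17 for HBA1 (1.10 to 1.30) and 1.35 for HBA2 (1.30 to 1.42). HBD was at 29.9 against 9.34 CPM of the summed reads, a log2 ratio of 1.58. In the beta cluster HBE1 was at -0.60 (-0.62 to -0.57) and the gamma sum at -0.22 (-0.23 to -0.21), and HBQ1 at 0.12 (0.02 to 0.22). Among 10249 genes 18.2% were past 2-fold higher in the imatinib run and 11.5% past 2-fold lower, with a median log2 ratio of 0.11. HBZ, HBA1 and HBA2 were past 2-fold higher and no globin gene past 2-fold lower. HBD was also past 2-fold higher, but it entered the set only through the imatinib run, where it was high, and is not counted. Culture, capture and library cannot be told apart between runs.

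The untreated cells of the Hoechst run, at a later passage and sequenced with longer reads, had lower levels of most globin genes than the Green cells. The paper sequenced all captured cells of the propidium iodide experiment, dead ones included, and left dead-stained cells out of sequencing in both others. It states that this experiment used another lot of K562 cells than both others. Its fixed cells were also stored for longer before capture, and they made up a larger part of the captured cells. Mitochondrial genes held a median of 12.5% of the reads of kept Hoechst libraries. In the Green libraries of the benzene and imatinib runs it was 6.52% and 6.32%. The part of these differences in the globin levels was not tested. Against the Green cells of the benzene run the log2 ratio was -0.91 for HBE1 (-0.94 to -0.89), -0.67 for the gamma sum (-0.68 to -0.66) and -0.52 for HBZ (-0.61 to -0.46), and -0.17 for the alpha sum (-0.22 to -0.12). By summed reads no globin gene in the set of 10505 was past 2-fold either way, whereas by the mean log2(CPM + 1) over libraries HBE1 was at -1.22 and HBZ at -1.14. In that set 25.7% of genes were past 2-fold higher and 11.5% lower. Against the Green cells of the imatinib run HBZ was at -2.46 (-2.55 to -2.44), the alpha sum at -1.48 (-1.53 to -1.45), the gamma sum at -0.45 (-0.46 to -0.44) and HBE1 at -0.31 (-0.34 to -0.29). HBD was at 1.10 against 29.9 CPM of the summed reads. HBZ, HBA1 and HBA2 were past 2-fold lower and no globin gene past 2-fold higher, again not counting HBD, which entered the set only through the Green cells, where 12.3% of 10813 genes were past 2-fold lower and 20% higher. These comparisons share the Green groups with the one before, and the longer reads of the Hoechst run leave more windows of HBG1 and HBG2 to themselves.

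In the 14 libraries of the Hoechst run that were left out, the gamma sum had a median of 22.0 CPM and HBE1 was detected in 1. In the 6 left out of the benzene run the gamma sum had a median of 4627 CPM and ranged from 2194 to 6041 CPM, within the range of the kept libraries. The left-out libraries of the runs were thus unlike in their globin reads.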

How the data were processed

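K562 cells were profiled on Fluidigm C1 chips, with bulk libraries that the labels do not mark. The deposited table holds whole-number counts of reads per gene, made by the authors with bcl2fastq 1.8.4 and 2.17.1.14, HISAT2, Picard 1.92 and featureCounts of Subread 1.5.0 on GRCh37 with Ensembl genes and ERCC spikes; only uniquely placed reads were counted. The deposited CPM table was not used. In the benzene run 4 columns matched no title and were not used. Labels gave run, stain and drug. The members and gene lists were chosen with earlier results of these data known, and the genes named are the members, HBBP1, 18 partners and the 3 most alike genes of each class. Some genes that these rules name are not reported here. Symbols were found for 55665 of 63677 identifiers, which held 99.0% of reads.

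CPM was computed over all genes without ERCC. Sums per stain and run were tested in edgeR 4.0.16 (TMM, filterByExpr, run as a term), and again in DESeq2 1.42.0 and in limma 3.58.1 voom; correlations used scipy on CPM. Ratios of sums used a pseudocount of 1 CPM, their exact conditional-binomial intervals none. Sequences were read from GRCh37 with GENCODE. Green and Orange sums of a run deviated together (r = 0.284 over 17684 genes). The tests were also run on simulated data. The changes built into the edgeR simulation were larger than the Orange to Green ratios given for the globin genes, so it does not bear on changes of that size. No pair of libraries had identical counts.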

Additional observations from a re-analysis of the deposited data

Results flagged for a closer look

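For 6 globin genes the Orange to Green ratio had opposite signs in the benzene and imatinib runs, with counting intervals that exclude 0 in both. The log2 ratio in the benzene run minus that in the imatinib run was 0.46 for HBE1 (0.24 and -0.22), -0.0848 for HBG1 (-0.03 and 0.06), 0.62 for HBZ (0.50 and -0.13), 0.50 for HBA1 (0.32 and -0.18), 0.56 for HBA2 (0.35 and -0.21) and 0.51 for HBQ1 (0.18 and -0.33). The drugs differ between the runs, the labels name no separate cultures within a group, and the difference was not tested. By the mean log2(CPM + 1) over libraries HBA1 (-0.19 and -0.09), HBA2 (-0.28 and -0.15) and HBQ1 (-0.32 and -0.64) had the same sign in both runs. The signs were thus opposite by both measures for HBE1, HBG1 and HBZ only. By median CPM, HBG1 was higher in Orange than in Green cells in both runs (758 against 661 and 748 against 702). So was HBZ (39.2 against 38.7 and 198 against 190). Of the 6 genes only HBE1 had medians that differed in opposite directions (639 against 536 and 304 against 338).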

How the results depend on the processing

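Of 415 alternative values for 72 results, 382 were counted as keeping their direction and their side of the threshold or moving by less than 1 SD. The values from leaving out a run were counted among these without a check, and several of them had the other sign. With DESeq2 117 genes were called in place of 0, none a globin gene; with no replicate block (the run left out as a term) edgeR called 0. Log2 differences near 0 changed sign: HBE1 to 0.0239 with limma, 0.0562 with no replicate block and 2.00e-05 without libraries over 10000 genes; HBG1 to -0.0104 with RLE factors, -0.0104 with DESeq2, -0.0122 with no filter, -0.0071 with no replicate block, -0.0177 with all libraries and -0.0054 without libraries over 10000 genes; HBA1 to -0.0164 with limma and -0.00069 with no replicate block; HBA2 to -0.0466 and -0.0221. Without either run no test could be made, and the ratios within the other run went from -0.22 to 0.24 for HBE1, -0.03 to 0.06 for HBG1, 0.0039 to 0.02 for HBG2, -0.09 to 0.01 for HBD, -0.13 to 0.50 for HBZ, -0.19 to 0.03 for HBM, -0.18 to 0.32 for HBA1, -0.21 to 0.35 for HBA2 and -0.33 to 0.18 for HBQ1.

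With all libraries the SD in the Hoechst run was 2.95 for HBE1, 2.78 for gamma and 2.33 for alpha, and 1.55 for HBE1 in the benzene run. With a pseudocount of 10 it was 1.30, 1.40 and 1.72 for HBZ over the runs, and 1.19 and 1.44 for alpha in the Hoechst and benzene runs; thinned, it was 2.36 for HBZ in the benzene run. HBZ was found in 98.5% of libraries of the benzene run at 1 read, 76.9% at 10 reads and 76.9% thinned, and HBD thinned in 3.75% and 44.2% in the Hoechst and imatinib runs. The rho of alpha with gamma in the benzene run was 0.63 as Pearson's r and 0.61 with all libraries, and that of HBE1 with HBZ in the Hoechst run 0.63 with all libraries. The cause was not tested. Of 80 ratios within a run under alternatives, 8 changed sign. Settings without libraries under 300000 reads, and ratios relative to the median of all genes, were chosen after seeing the data. HBB and HBM were too low for any comparison at this depth.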
